A study of Mus musculus with 12 samples.

Results

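The comparison described here was between mice with an activated ErbB2 receptor transgene in oligodendrocyte lineage cells and their littermates, in subcortical white matter at postnatal day 30. Its members were the 6 libraries of the ErbB2V664E line among the 12 libraries of the study, and all loci of the deposited table that carry a gene symbol, 31943 of 33864. Of these, 13202 reached the expression minimum for testing.

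Polyadenylated RNA of dissected white matter was sequenced. The 3 mutants carried Sox10-tTA, a tetracycline transactivator under control of Sox10, together with the responder TRE-ErbB2V664E. Sox10 is active in the oligodendrocyte lineage, from precursors to mature cells, and outside the brain in Schwann cells. The 3 controls were littermates with TRE-ErbB2V664E alone, and both groups received doxycycline from day 21 to day 30. Descriptions name the control of each mutant, so mutants and controls numbered 1 to 3 form 3 litter pairs. The other line of the study, used here for comparison only, held 3 Sox10-tTA;TRE-dnEGFR mutants and 3 TRE-dnEGFR littermates, given doxycycline from day 21 and sampled at day 35. No group carried the transactivator alone, and age and transgene differed together between the lines. The sources used here do not state whether doxycycline turned expression of the transgene on or off, nor the strain.

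ErbB receptors are tyrosine kinases that act as pairs. ErbB2 has no known ligand of its own and signals together with a partner such as ErbB3 or ErbB4, which bind neuregulins, or the epidermal growth factor receptor. The change in the V664E form lies in the segment that crosses the membrane and keeps the receptor active without ligand. Downstream of the receptors lie the Ras and ERK kinases and the PI3K, Akt and mTOR pathway. Oligodendrocytes are the myelin-forming cells of the brain, and their myelin is rich in cholesterol and galactolipids that they largely make themselves.

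Levels are given as FPKM, a fragment count divided by transcript length and by the size of the library. The step between low values of 14221 loci with 1 transcript put the depth of the 6 libraries at an estimated 16641000 fragments (mutant 1) to 21889000 (mutant 3), so that 1 FPKM in a transcript of 2 kb stood for 33.3 to 43.8 fragments. Changes are differences of group means of log2(FPKM + 1), which understate the change of low genes, and a locus was called when limma's p-value, adjusted by Benjamini and Hochberg over 13803 loci, was under 0.05. Both sexes were present and balanced, since control 2 and mutant 2 expressed Xist (27.3 and 19.9 FPKM) with Ddx3y listed at 0, and the other 4 libraries had Ddx3y at 6.65 to 10.2. Erbb2 itself was at 0.970, 0.960 and 0.772 FPKM in the controls and 0.865, 0.833 and 0.894 in the mutants, below the expression minimum. The sources used here do not state from which species or part of the receptor the transgene was made, so these values do not check the genotype.

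Mutant 1 stood nearer to the controls than the other mutants did. On the first principal component of the 6 libraries, which held 27.6% of the variance, the controls lay at -20.2, -17.1 and -19.3, mutant 1 at -5.7, and mutants 2 and 3 at 35.3 and 27. Its correlation with the controls over tested loci was 0.922 to 0.924, and with the other mutants 0.913 and 0.918. Results are therefore given with all 3 mutants and, where they differ, without mutant 1.

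At 38 of 13803 loci (0.275%) mutants and controls differed past the threshold, 19 higher and 19 lower, or 0.138% in each direction. Among loci with a symbol 34 were called (0.258%). Genes of mature and newly formed oligodendrocytes, tau and a laminin chain were among those that fell, and a collagen, von Willebrand factor and a procollagen protease among those that rose. At an unadjusted p under 0.05 there were 861 lower loci (6.24%) and 814 higher (5.9%). Without mutant 1 there were 262 calls (1.9%), 126 higher (0.913%) and 136 lower (0.985%), and all 38 were among them. With each of the 6 libraries left out in turn, 11 loci were called every time, 7 higher and 4 lower. With the litter as a block 7 loci were called, and of the 34 with a symbol 5 kept their call, among them Klk6, Gm28933, Gm7866 and Gm14586, with the other 29 lying at adjusted p from 0.0503 to 0.226 in limma.

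Klk6, a secreted serine protease made by mature oligodendrocytes, fell most among the called loci with 1 symbol and no library at 0. It was at 5.24, 3.06 and 5.51 FPKM in the controls, against 0.423, 0.193 and 0.248 in the mutants. All 3 mutants, mutant 1 included, were far below the lowest control. The log2 change was -2.09 (SE 0.17, limma adjusted p = 0.000587; 0.0146 with the litter block), and the call held with any 1 library left out. Serpinb1a, an intracellular inhibitor of serine proteases, was at 4.14, 2.26 and 3.29 FPKM in the controls, against 0.595, 0.433 and 0.804 in the mutants. It fell by 1.37 on the log2 scale (SE 0.20, limma adjusted p = 0.0246), again without overlap and as far in mutant 1 as in the others, and was at 0.0544 with the litter block. It lost the call without control 1, control 3, mutant 2 or mutant 3 (adjusted p up to 0.117).

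Mag, the myelin-associated glycoprotein of the innermost myelin layer, was at 106, 86.4 and 115 FPKM in the controls, against 59.6, 34.0 and 39.9 in the mutants. The groups did not overlap, and mutant 1 lay between the controls and the other mutants. Mag fell by 1.22 on the log2 scale (SE 0.20, limma adjusted p = 0.0449; 0.109 with the block), and by 1.44 without mutant 1 (0.00425). Without any of the other 5 libraries Mag was not called, at adjusted p up to 0.15. Gsn, gelsolin, which severs actin filaments and is abundant in myelinating cells, was at 26.7, 18.6 and 30.1 FPKM in the controls and 11.4, 8.13 and 9 in the mutants. It fell by 1.30 (SE 0.17, limma adjusted p = 0.0159; 0.0674 with the block), with every mutant below every control, and missed the threshold without control 1, mutant 2 or mutant 3.

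**Figure D1:**
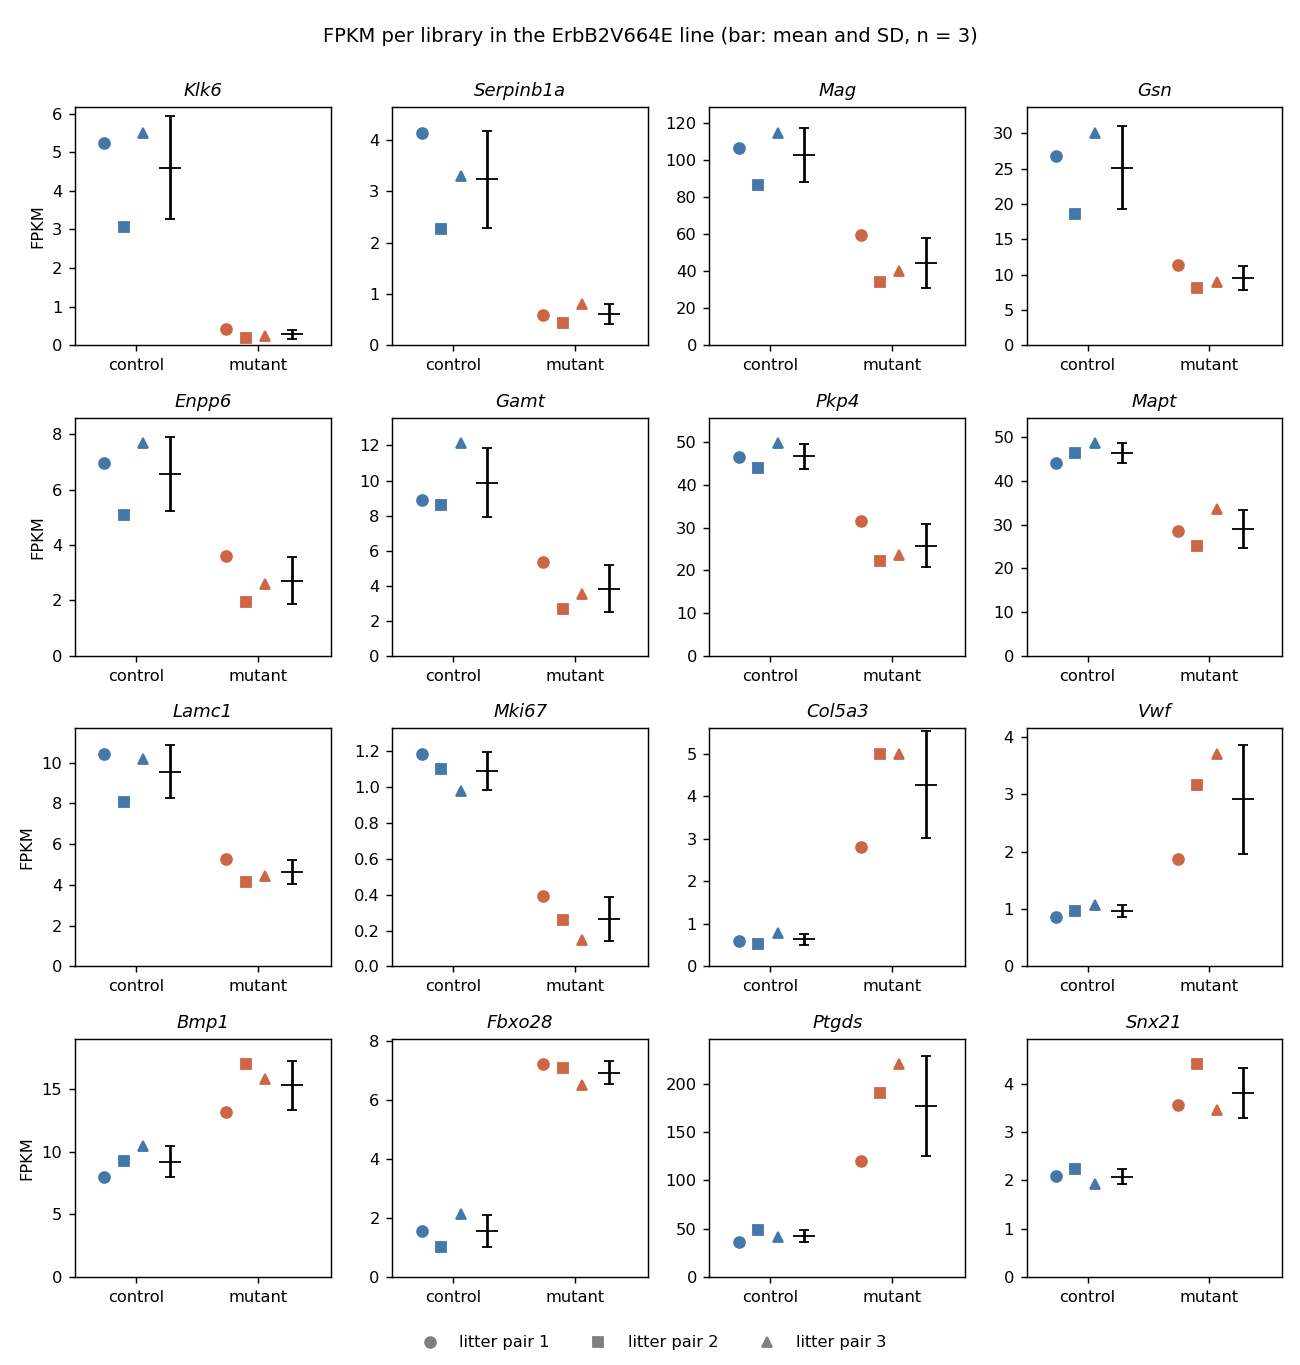
FPKM (y axis, linear, from 0) of 16 genes in the 3 control and 3 mutant libraries of the ErbB2V664E line (x axis), 1 panel a gene, with the symbol shape marking the litter pair and the bar the mean and SD of n = 3. Klk6 lay at 3.06 to 5.51 in controls and at most 0.423 in mutants, while for Mag, Col5a3 and Ptgds mutant 1 lay between the controls and the other mutants.

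The promoters of Mag and Klk6 are shown because SOX factors, among them Sox10, and the myelin regulatory factor Myrf are known to act on myelin genes. The stretches are the 250 bases before the annotated start in RefSeq's GRCm38.p6 annotation, read on the gene's strand, at chr7:30914864-30915113 (minus strand) for Mag and chr7:43824294-43824543 (plus strand) for Klk6, taking of the 3 windows of Mag and the 2 of Klk6 the one with most matches. Capitals mark ACAAAG, a core SOX motif, or its reverse complement, and CTGGCAC, a Myrf motif.
Mag: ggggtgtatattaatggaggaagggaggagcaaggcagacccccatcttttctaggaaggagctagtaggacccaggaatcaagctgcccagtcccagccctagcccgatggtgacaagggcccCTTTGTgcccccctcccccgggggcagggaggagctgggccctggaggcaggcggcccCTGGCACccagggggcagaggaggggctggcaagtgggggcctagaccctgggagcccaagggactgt
Klk6: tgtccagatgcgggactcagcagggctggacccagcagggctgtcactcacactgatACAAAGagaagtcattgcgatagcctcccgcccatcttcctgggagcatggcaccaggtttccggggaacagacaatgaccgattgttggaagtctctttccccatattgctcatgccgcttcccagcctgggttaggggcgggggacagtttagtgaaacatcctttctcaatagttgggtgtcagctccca
The SOX letters lie 126 to 121 bases before the start in Mag, on the opposite strand, and 193 to 188 bases before it in Klk6, and the Myrf letters of Mag lie 68 to 62 bases before the start. Searched on both strands, ACAAAG was in 20.8% of the 24 windows of the 15 lower genes with an entry, in 26.7% of the 30 windows of 22 mature myelin genes and in 16.5% of all 32851 windows of that length. CTGGCAC was in 12.5%, 13.3% and 4.19% of them. Among the lower genes these were 3 windows of 2 genes (Gamt and Mag). Among the mature myelin genes they were 4 windows of 3 genes (Cnp, Hapln2 and Mag), so Mag counts in both sets. These are matches of letters, not measured binding.

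Over the whole list of mature myelin genes, 34 of 35 were tested. Of these, 2 were called lower (Mag and Gsn) and 0 higher, where 0.138% of all loci were called in each direction. Log2 changes were negative in 29 of 34 with a median of -0.65, against 49% negative and a median of 0.004 over all loci tested. Mutants lay below controls without overlap at 14 of the 34, where 8.96% of all loci did. The list's median against the control mean was -0.29 in mutant 1, -0.87 in mutant 2 and -0.62 in mutant 3, with controls from -0.15 to 0.14. Without mutant 1 the counts were 8 lower and 1 higher, against 0.985% and 0.913% of all loci.

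Myelin genes beyond Mag and Gsn were not called with all 3 mutants. Mbp, which encodes myelin basic protein, was at 695, 588 and 866 FPKM in the controls, against 557, 435 and 463 in the mutants (log2 change -0.55, limma adjusted p = 0.201). The groups did not overlap, and mutant 1 was the highest mutant. Ugt8a, the enzyme that makes galactosylceramide, was at 11.8, 10.6 and 9.54 FPKM in the controls, against 10.7, 2.44 and 1.52 in the mutants, so that mutant 1 lay within the controls (-1.32, limma adjusted p = 0.266; -1.98 and 0.00276 without mutant 1). Qdpr, a pteridine reductase, and the locus of Trf, transferrin, joined with Srprb and Gm20425, followed with -1.27 and -1.1 without mutant 1 (adjusted p 0.00558 and 0.00276) and were not called with it.

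Not all mature oligodendrocyte genes were lower. Apod, a lipid-binding lipoprotein of mature oligodendrocytes and other glia, was at 34.7, 39.3 and 34.2 FPKM in the controls, against 32.3, 106 and 83.1 in the mutants, with mutant 1 below every control (log2 change 0.86, limma adjusted p = 0.347; 1.36 and 0.0026 without mutant 1). Ptgds, the prostaglandin D synthase of oligodendrocytes and of the meninges, was at 36.3, 49.0 and 41.9 FPKM in the controls, against 120, 191 and 221 in the mutants. Every mutant was more than all controls, mutant 1 the least so, with a log2 change of 2.00 (SE 0.35) that just missed the threshold (limma adjusted p = 0.0585) and passed it without mutant 1 (2.26, 0.0228). Serpina3n, an acute-phase protease inhibitor, and C4b, a complement component, both induced in stressed oligodendrocytes and astrocytes, had log2 changes of 1.16 and 0.66 without overlap and were not called (adjusted p 0.158 and 0.39). The list that holds these genes with Klk6 and Serpinb1a had 2 of 16 tested members called, both lower, against 0.138% of all loci.

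Newly formed oligodendrocytes, the stage between precursor and myelinating cell, were represented by 20 tested genes. Enpp6, a choline phosphodiesterase of cells that begin to myelinate, was at 6.96, 5.09 and 7.68 FPKM in the controls, against 3.61, 1.93 and 2.60 in the mutants. All mutants were below all controls, and Enpp6 fell by 1.04 on the log2 scale (SE 0.17, limma adjusted p = 0.0464; 0.0785 with the block; not called without controls 1 or 3 or mutants 2 or 3). It was the only member called, while 18 of 20 were negative with a median of -0.33 and 13 were lower without overlap. Over all loci 0.138% were called lower and 8.96% were lower without overlap. In contrast to mature myelin, mutant 1 (-0.36) lay as low as mutants 2 and 3 (-0.30 and -0.25) in this list. Bcas1, a protein of early myelinating cells, was at 46.2, 37.7 and 52.9 FPKM against 30.5, 22.1 and 17.0 (-0.97, limma adjusted p = 0.158). In bulk tissue, fewer cells of a type and less RNA per cell cannot be told apart.

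Precursor genes gave no calls. Of 23 tested, 0 were called by limma, 4 lower and 2 higher had an unadjusted p under 0.05, 17 were negative and the median was -0.18. Over all loci 6.24% were lower and 5.9% higher at that unadjusted p, and 49% were negative. Pdgfra, the growth factor receptor that defines precursors, was at 8.45, 7.75 and 7.83 FPKM in the controls, against 7.26, 5.40 and 5.01 in the mutants (-0.40, limma adjusted p = 0.219; -0.54 and 0.0383 without mutant 1). Sox10, whose regulatory region drives the transactivator, was at 27.1, 22.3 and 29.8 against 16.4, 15.5 and 14.8 without overlap (-0.72, limma adjusted p = 0.399). Olig1, a lineage transcription factor, was listed at 0 in each control, against 59.0, 55.1 and 48.0 in the mutants, but was also listed at 0 in 5 of the 6 dnEGFR-line libraries, with 35.4 in the other, and was not called (limma adjusted p = 0.0748). No fold is given for a locus listed at 0.

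Several enzymes and cell structure genes outside the classic myelin set fell as well. Gamt, which makes creatine and is expressed in oligodendrocytes, was at 8.89, 8.60 and 12.1 FPKM in the controls, against 5.33, 2.67 and 3.53 in the mutants (log2 change -1.19, SE 0.19, limma adjusted p = 0.0437). Pkp4, a junction protein of the armadillo family, was at 46.4, 44.0 and 49.8 against 31.6, 22.3 and 23.5 (-0.85, SE 0.13, limma adjusted p = 0.0361). Both had every mutant below every control with mutant 1 nearest to the controls, and both missed the threshold without any one of the other 5 libraries and with the block (0.14 and 0.148). Mapt, the microtubule-binding protein tau of neurons and oligodendrocytes, was at 44.2, 46.4 and 48.7 FPKM in the controls, against 28.5, 25.1 and 33.6 in the mutants. Tau fell by 0.67 (SE 0.11, limma adjusted p = 0.047; 0.161 with the block; lost without any control or mutant 2), and here mutant 1 was as low as the others. Of 20 tested microtubule and tau genes, which sat at 19 loci, 1 was called, 14 loci were negative, and the median was -0.22. Over all loci 0.138% were called lower and 49% were negative.

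Lamc1, the gamma chain of most laminins of the basement membrane, was at 10.4, 8.09 and 10.2 FPKM in the controls, against 5.28, 4.16 and 4.42 in the mutants. It fell by 0.91 on the log2 scale (SE 0.11, limma adjusted p = 0.0109; 0.0615 with the block), was lower in all 3 mutants, and missed the threshold only without mutant 2 (0.0519). Cyp27a1, a mitochondrial sterol hydroxylase, was at 1.88, 2.03 and 2.14 against 0.899, 0.537 and 0.932 (-0.76, limma adjusted p = 0.0248; 0.144 with the block). Mki67, a nuclear protein of dividing cells, was at 1.19, 1.1 and 0.978 against 0.390, 0.257 and 0.148 (-0.73, limma adjusted p = 0.0407; 0.171 with the block). Neither Cyp27a1 nor Mki67 overlapped between the groups, and both lost the call without any control or without mutant 2, Mki67 also without mutant 3. Smg1, a kinase of nonsense-mediated decay (-1.33, limma adjusted p = 0.0188; 0.0674 with the block), and Heatr1, a ribosome biogenesis factor (-0.54, 0.0308; 0.135 with the block), also fell. Smg1 lost the call without control 1, control 3, mutant 2 or mutant 3, and Heatr1 without any library but mutant 1.

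Guidance molecules of the semaphorin and plexin families, which steer axons and also act on glia, were lower at 2 loci past the threshold. Sema4d, a semaphorin of oligodendrocytes that shares its locus with Gm15440, was at 13.4, 10.8 and 14.6 FPKM in the controls, against 7.95, 4.91 and 5.72 in the mutants. That locus fell by 0.97 (SE 0.15, limma adjusted p = 0.0407; 0.11 with the block). Plxnb3, an oligodendrocyte plexin whose locus is joined with the kinase gene Srpk3, was at 5.74, 5.13 and 5.74 against 3.21, 2.27 and 2.20 and fell by 0.89 (SE 0.14, 0.0433; 0.135 with the block). The Sema4d locus lost its call without control 1, control 3, mutant 2 or mutant 3, and the Plxnb3 locus without any library but mutant 1. Neither joined value can be given to 1 gene. With Mag, which also belongs to the list as an inhibitor of axon growth, 3 of 21 tested members were called lower and 0 higher, against 0.138% of all loci in each direction, and the median was -0.15.

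Col5a3, Bmp1 and Vwf rose. Col5a3, a chain of the fibrillar type V collagen, was at 0.610, 0.528 and 0.782 FPKM in the controls, against 2.82, 4.99 and 5.01 in the mutants. Each mutant exceeded each control several times over, and Col5a3 rose by 1.66 on the log2 scale (SE 0.17, limma adjusted p = 0.00306; 0.0584 with the block), a call kept without any single library. Bmp1, the metalloprotease that trims procollagens, was at 7.93, 9.24 and 10.4 against 13.1, 17.0 and 15.8 and rose by 0.68 (SE 0.11, limma adjusted p = 0.0469; 0.116 with the block). Vwf, von Willebrand factor of endothelial cells, was at 0.862, 0.963 and 1.07 FPKM in the controls, against 1.87, 3.16 and 3.71 in the mutants (0.97, SE 0.16, limma adjusted p = 0.0449; 0.135 with the block). Vwf was the only one of 18 tested endothelial genes to be called, and the list had a median of 0.02 with summed FPKM of 218 to 240 in controls and 213 to 228 in mutants. Bmp1 and Vwf lost their call when any library other than mutant 1 was left out. The list of matrix, laminin and collagen genes as a whole had 0 of 20 tested members called higher and 1 lower (Lamc1), with 11 negative and a median of -0.10. Over all loci 0.138% were called in each direction and 49% were negative.

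Further genes that rose belong to no single pathway. Gabrr2, a subunit of rho-type GABA receptors, was at 0.207, 0.452 and 0.257 FPKM in the controls, against 2.12, 2.93 and 3.49 in the mutants (1.55, limma adjusted p = 0.00999; 0.0674 with the block). Fbxo28, a ubiquitin ligase component, was at 1.55, 1.03 and 2.12 against 7.21, 7.08 and 6.49 (1.65, limma adjusted p = 0.00306; 0.0503 with the block). Snx21, a sorting nexin of endosomes, was at 2.09, 2.23 and 1.92 against 3.56, 4.40 and 3.45 (0.64, limma adjusted p = 0.0188; 0.113 with the block). All 3 genes were free of overlap, and for Fbxo28 and Snx21 mutant 1 stood among the other mutants. Slc35f3, a membrane transporter gene, and Fam222a rose by 1.02 and 1.75 (limma adjusted p 0.0263 and 0.0223; 0.11 and 0.0785 with the block). Gabrr2 lost the call without mutant 2, Snx21 without control 1, control 3 or mutant 2, Slc35f3 without control 2, control 3, mutant 2 or mutant 3, and Fam222a without any control or mutant 2. The value for Fam222a comes from 1 of 4 loci with that symbol, and the other 3 loci overlapped between the groups.

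Of the 34 calls with a symbol, 5 rest on loci listed at 0 in 1 whole group. The pseudogenes or unnamed genes Gm28933, Gm7866, Gm14586 and Rpl3-ps2 were listed at 0 in each control, against 7.64 to 10.9, 3.45 to 5.85, 2.42 to 2.99 and 2.89 to 3.50 FPKM in the mutants. In the dnEGFR line Gm28933 was listed at 0 in all 6 libraries, but Gm7866 (2.99 to 6.62), Gm14586 (3.95 to 8.83) and Rpl3-ps2 (5.53 to 21.7) were present in all 6, so for these 3 the ErbB2V664E-line controls stood apart from all other libraries. Rpl3-ps2 is a copy of the ribosomal gene Rpl3, which was at 30.6 to 34.1 in controls and 22.2 to 27.2 in mutants, and reads of such copies cannot be assigned with certainty. Rpl3-ps2 lost its call without any library but mutant 1 and with the block (limma adjusted p = 0.0844). A second locus named Ssu72 was at 1.76 to 1.91 in controls and listed at 0 in mutants, while the larger locus of that gene overlapped between the groups at 7.74 to 13.7. The second locus was also listed at 0 in all 6 dnEGFR-line libraries, so there too the ErbB2V664E-line controls stood apart. Tmem254c, which fell by 1.42 (limma adjusted p = 0.00306; 0.0995 with the block), has the close copies Tmem254a and Tmem254b in the table, so its reads may be split among them. Tmem254c was at 2.72 to 3.33 FPKM in the controls, against 0.360 to 0.900 in the mutants and 0.443 to 0.977 in the dnEGFR line. Its controls thus stood apart from all other libraries.

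The receptor family and its pathway gave no calls in limma with all 3 mutants. The receptor list, which also holds genes that are not receptors, such as Errfi1, had 5 tested members. Of these 5, 2 (Erbb3 and Egfr) had an unadjusted p under 0.05, both lower, as did 6.24% of all loci. Erbb3, the neuregulin receptor that pairs with ErbB2, was at 8.23, 7.75 and 9.29 FPKM in the controls, against 4.57, 2.78 and 2.04 in the mutants. The groups did not overlap, and the log2 change of -1.23 (SE 0.24) passed only without mutant 1 (limma adjusted p = 0.081 with it; -1.47 and 0.0157 without). Egfr was at 2.01, 1.93 and 1.88 against 1.5, 1.18 and 1.48 (-0.30, limma adjusted p = 0.202), also without overlap, while Erbb4 overlapped widely. Among ligands, Tgfa and Hbegf, both activators of the epidermal growth factor receptor, had log2 changes of -0.54 and -0.34, with every mutant below every control and adjusted p of 0.265 and 0.307. The neuregulin genes Nrg1, Nrg2 and Nrg3, each read from its highest locus, overlapped between the groups (log2 changes 0.28, 0.14 and 0.08).

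Genes that report ERK activity by feedback gave no calls. Of 16 tested, 0 were called and 0 had an unadjusted p under 0.05 in limma, 10 were positive and the median was 0.07. Dusp6, a phosphatase that switches ERK off, was at 9.56, 14.9 and 11 FPKM in the controls, against 8.69, 9.67 and 16.4 in the mutants. Spry2, another ERK feedback inhibitor, was at 6.49, 8.86 and 8.21 against 8.01, 10.9 and 8.84, and Etv5, an ERK-induced transcription factor, at 7.04, 19.2 and 15.4 against 18.2, 18.3 and 19.1. All 3 genes overlapped between the groups, with a spread among controls as wide as the differences. The list's smallest p was at a locus that joins Fam98c and Spred3, at 2.23, 2.12 and 2.40 FPKM against 4.34, 2.73 and 4.34. Every mutant there lay above every control, as at 9.28% of all loci (log2 change 0.54, limma adjusted p = 0.428). That value cannot be given to 1 gene. Immediate early genes (0 of 15 called, median -0.21) and PI3K, Akt and mTOR pathway genes (0 of 19, median -0.04) gave no calls either, though Akt2 was called lower without mutant 1 (-0.49, limma adjusted p = 0.0334), where mutant 1 at 6.81 FPKM lay above the controls at 6.22 to 6.75.

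The 262 loci called without mutant 1 were then read in mutant 1, a library that did not enter those calls, although the controls are the same. Mutant 1 lay outside the control range in the same direction at 196 of them (74.8%), within it at 53, and outside on the other side at 13. Its change was a median of 0.373 of the mean change of mutants 2 and 3, with quartiles of 0.166 and 0.567. The same reading gave a median of 1 for mutant 2 at the 16 loci called without it and 0.805 for mutant 3 at 28 loci. Since the controls that chose the loci also serve as the reference for the library left out, these values are a description and test nothing.

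**Figure D2:**
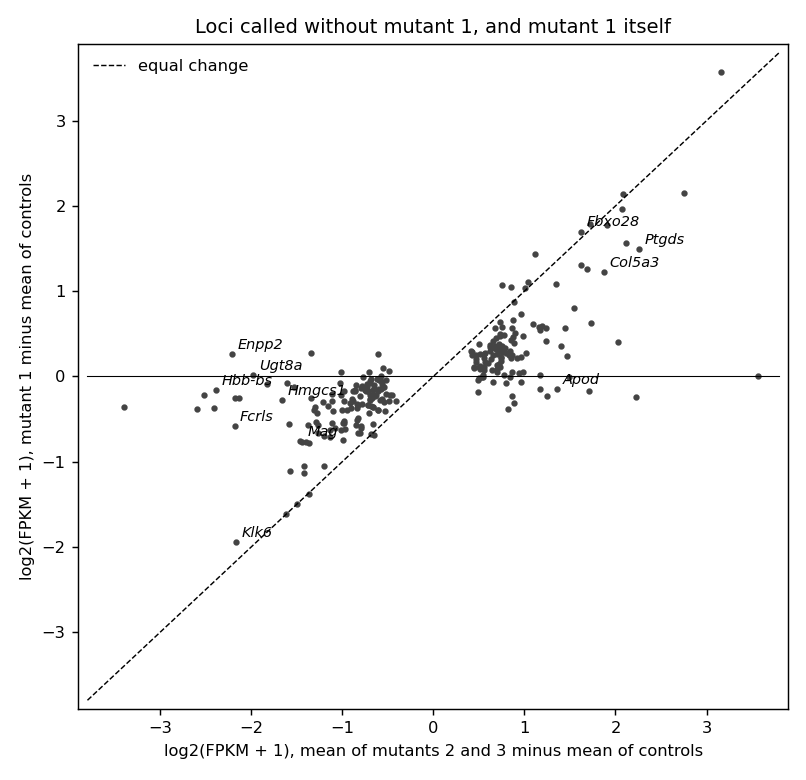
Each point is 1 of the 262 loci called without mutant 1, with the mean of mutants 2 and 3 minus the mean of the 3 controls on the x axis and mutant 1 minus the same mean on the y axis, both in log2(FPKM + 1). The dashed line marks equal change. Klk6 and Fbxo28 lie near it, while Ugt8a, Enpp2 and Apod lie near 0 on the y axis.

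Individual genes differed on this reading. Klk6 (-1.95 in mutant 1, -2.17 in the others), Serpinb1a (-1.38 and -1.37) and Fbxo28 (1.7 and 1.62) differed from the controls by similar amounts in all mutants. Nceh1, a cholesterol ester hydrolase (3.40, 3.74 and 2.51 FPKM in controls; 2.54, 18.1 and 19.0 in mutants), Ddc, the decarboxylase of dopamine and serotonin synthesis (1.93, 1.72 and 2.23; 2.89, 10.4 and 11.7), and Agt, angiotensinogen of astrocytes (10.3, 7.97 and 6.54; 7.12, 25.8 and 32.4), were high only in mutants 2 and 3. Cbl, the ubiquitin ligase that removes activated receptors, went the other way, at 5.55, 4.21 and 5.09 in controls and 3.96, 0.0692 and 0.597 in mutants. These 4 genes were picked after their values were seen.

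Cholesterol synthesis, which supplies the main lipid of myelin, was lower in mutants 2 and 3 and near the controls in mutant 1. Of 24 tested genes 0 were called by limma with all mutants, 13 had an unadjusted p under 0.05, all lower, 21 were negative and the median was -0.43, with list medians of -0.09, -0.56 and -0.52 in mutants 1, 2 and 3 and -0.10 to 0.15 in the controls. Over all loci 6.24% were lower at that unadjusted p and 49% were negative. Without mutant 1, 7 of the cholesterol genes were called lower and 0 higher, where 0.985% of all loci were lower. Hmgcs1, which makes the precursor of mevalonate, was at 59.1, 42.2 and 74.3 FPKM in the controls, against 46.9, 17.4 and 17.3 in the mutants (-1.20, limma adjusted p = 0.23; -1.66 and 0.0283 without mutant 1). Idi1, the isopentenyl isomerase, was at 14.5, 15.7 and 17.9 against 11.9, 5.99 and 5.73 (-1.0, 0.12; -1.31 and 0.0026 without mutant 1). For Hmgcs1 mutant 1 lay inside the control range, and for Idi1 just under it.

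Later steps of the pathway followed. Cyp51, the lanosterol demethylase, was at 11.7, 6.15 and 12.9 FPKM in the controls, against 9.21, 2.75 and 2.38 in the mutants, and Nsdhl, a sterol dehydrogenase, at 7.89, 7.44 and 9.47 against 6.56, 3.94 and 4.08. Their log2 changes without mutant 1 were -1.60 and -0.88 (limma adjusted p 0.0166 and 0.00903), and the other genes called on that basis at their highest locus were Sqle (-0.56), Dhcr7 (-0.73) and Srebf2 (-0.52), the transcription factor of the pathway. Ebp, a sterol isomerase, was called without mutant 1 at its lower locus (-0.91, limma adjusted p = 0.0413) but not at its higher one (-0.62, 0.191). Pmvk, Acat2 and the joined locus of Fdps overlapped between the groups, with log2 changes of 0.07, -0.06 and 0.04. Scd2, the main fatty acid desaturase of the brain, was at 359, 332 and 333 FPKM in the controls and 292, 227 and 209 in the mutants (-0.51, limma adjusted p = 0.126; -0.65 and 0.00862 without mutant 1). Srebf1, the fatty acid counterpart of Srebf2, had a positive change (0.53, limma adjusted p = 0.195) with every mutant above every control, as 9.28% of all loci had.

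**Figure D3:**
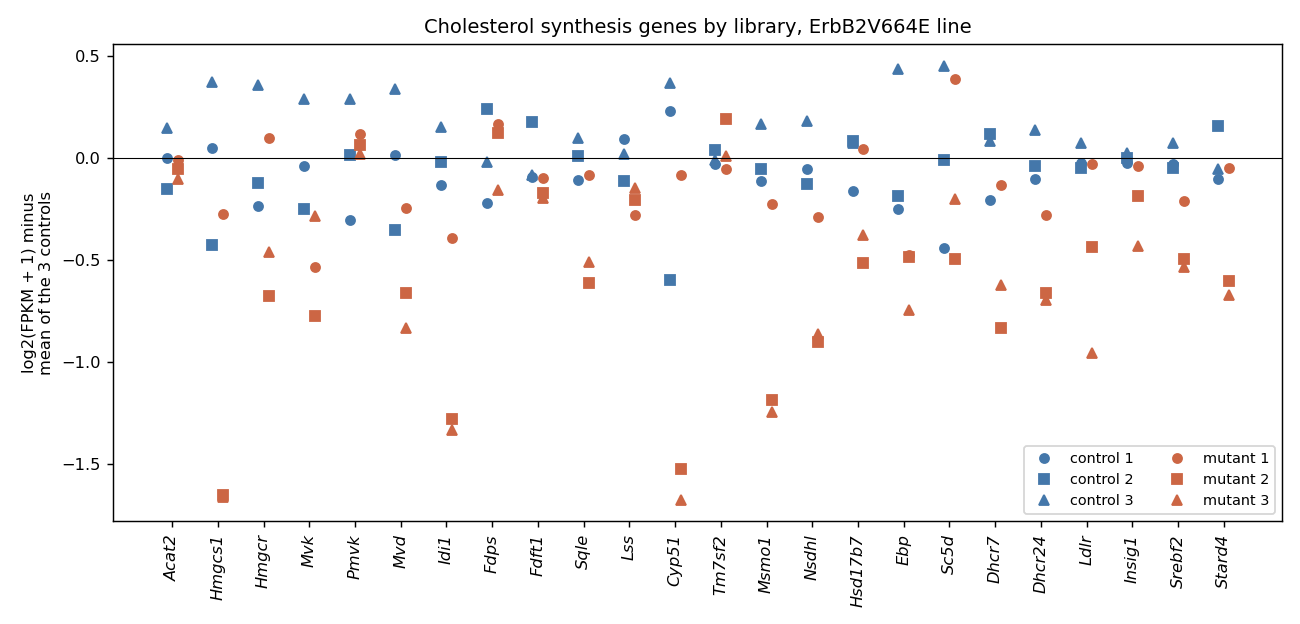
Difference of log2(FPKM + 1) from the mean of the 3 controls (y axis) for the 24 tested cholesterol synthesis genes (x axis, enzymes in pathway order and then regulators) in each library of the ErbB2V664E line. Mutants 2 and 3 lie below the controls at Hmgcs1, Idi1, Cyp51, Msmo1 and Nsdhl, and mutant 1 lies nearer to 0 at each of these genes.

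Promoters of 3 of these genes are shown because sterol genes are known to be driven by Srebf2 together with the CCAAT-binding factor NF-Y. They are the 250 bases before the RefSeq start in GRCm38.p6, all on the plus strand, at chr13:119690101-119690350 (Hmgcs1), chr13:8885356-8885605 (Idi1) and chrX:72918271-72918520 (Nsdhl). Capitals mark TCACNCCAC, a sterol response motif, and CCAAT, here on the opposite strand as ATTGG.
Hmgcs1: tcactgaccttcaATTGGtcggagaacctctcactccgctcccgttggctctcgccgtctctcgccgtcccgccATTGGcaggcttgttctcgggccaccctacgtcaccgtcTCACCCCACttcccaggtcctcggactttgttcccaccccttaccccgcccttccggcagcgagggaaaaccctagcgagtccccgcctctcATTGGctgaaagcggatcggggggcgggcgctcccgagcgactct
Idi1: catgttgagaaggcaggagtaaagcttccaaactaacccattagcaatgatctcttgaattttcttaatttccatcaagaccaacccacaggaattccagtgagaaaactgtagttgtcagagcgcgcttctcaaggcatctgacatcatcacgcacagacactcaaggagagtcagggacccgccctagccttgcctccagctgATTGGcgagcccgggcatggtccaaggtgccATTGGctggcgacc
Nsdhl: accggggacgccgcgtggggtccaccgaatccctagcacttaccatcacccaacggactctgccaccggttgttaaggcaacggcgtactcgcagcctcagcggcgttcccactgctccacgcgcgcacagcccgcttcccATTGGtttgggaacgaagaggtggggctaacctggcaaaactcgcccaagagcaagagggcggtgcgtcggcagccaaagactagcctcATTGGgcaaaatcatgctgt
The nearest CCAAT match to the start begins 45 bases before it in Hmgcs1, 14 in Idi1 and 20 in Nsdhl, and the sterol motif of Hmgcs1 begins 137 bases before it. On both strands CCAAT was in 16 of 20 windows of 17 cholesterol genes with an entry (80.0%), against 33.8% of all windows of this length. The sterol motif in this strict form was in 1 of the 20 (5.0%) against 1.05%.

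Genes of microglia, the resident immune cells, followed the same order of mutants. Of 23 tested, 0 were called by limma with all mutants, 11 had an unadjusted p under 0.05, all lower, 19 were negative and the median was -0.42, and 5 were called lower without mutant 1. Over all loci 6.24% were lower at that unadjusted p and 0.985% were called lower without mutant 1. Fcrls, a microglial receptor, was at 5.92, 6.01 and 6.70 FPKM in the controls, against 3.81, 0.690 and 0.485 in the mutants (-1.65, limma adjusted p = 0.12; -2.18 and 0.00088 without mutant 1). Tmem119, a microglial membrane protein, was at 6.94, 6.46 and 9.95 against 6.49, 3.25 and 2.79 (-0.81, 0.21; -1.11 and 0.0237 without mutant 1). Mutant 1 lay between the controls and the other mutants for Fcrls and within the controls for Tmem119. Markers of microglia in disease showed no such shift, with 0 of 14 called and a median of 0.01. Apoe, the lipid carrier of astrocytes and such microglia, was at 193, 187 and 207 in the controls and 238, 285 and 305 in the mutants (0.49, limma adjusted p = 0.161).

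Transcripts of cells that enter with blood or with neighbouring tissue moved along with these lists. Haemoglobin genes and other red blood cell markers had a median of -1.54 over 6 tested genes, and summed FPKM of 131 to 256 in the controls and 147, 64.9 and 51.1 in mutants 1, 2 and 3. Choroid plexus markers, from the tissue that makes cerebrospinal fluid, had a median of -0.83 with 12 of 12 negative, and summed FPKM of 357 to 764 in controls and 806, 38.4 and 130.3 in the mutants. Over all loci 49% were negative. Ttr, their most abundant gene, was at 244, 545 and 236 FPKM in the controls, against 617, 9.49 and 92.4 in the mutants, and Cldn2 was listed at 0 in mutant 2. By the median of the list, control 2 was highest (0.58 above the control mean), followed by mutant 1 (0.41), and mutants 2 and 3 were lowest (-1.36 and -1.35). Enpp2, counted among both myelin and choroid plexus genes, was at 115, 164 and 97.5 against 147, 22.0 and 30.1, in the order of the choroid plexus genes. The part of these transcripts in the lower myelin, sterol and microglial values of mutants 2 and 3 was not tested.

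**Figure D4:**
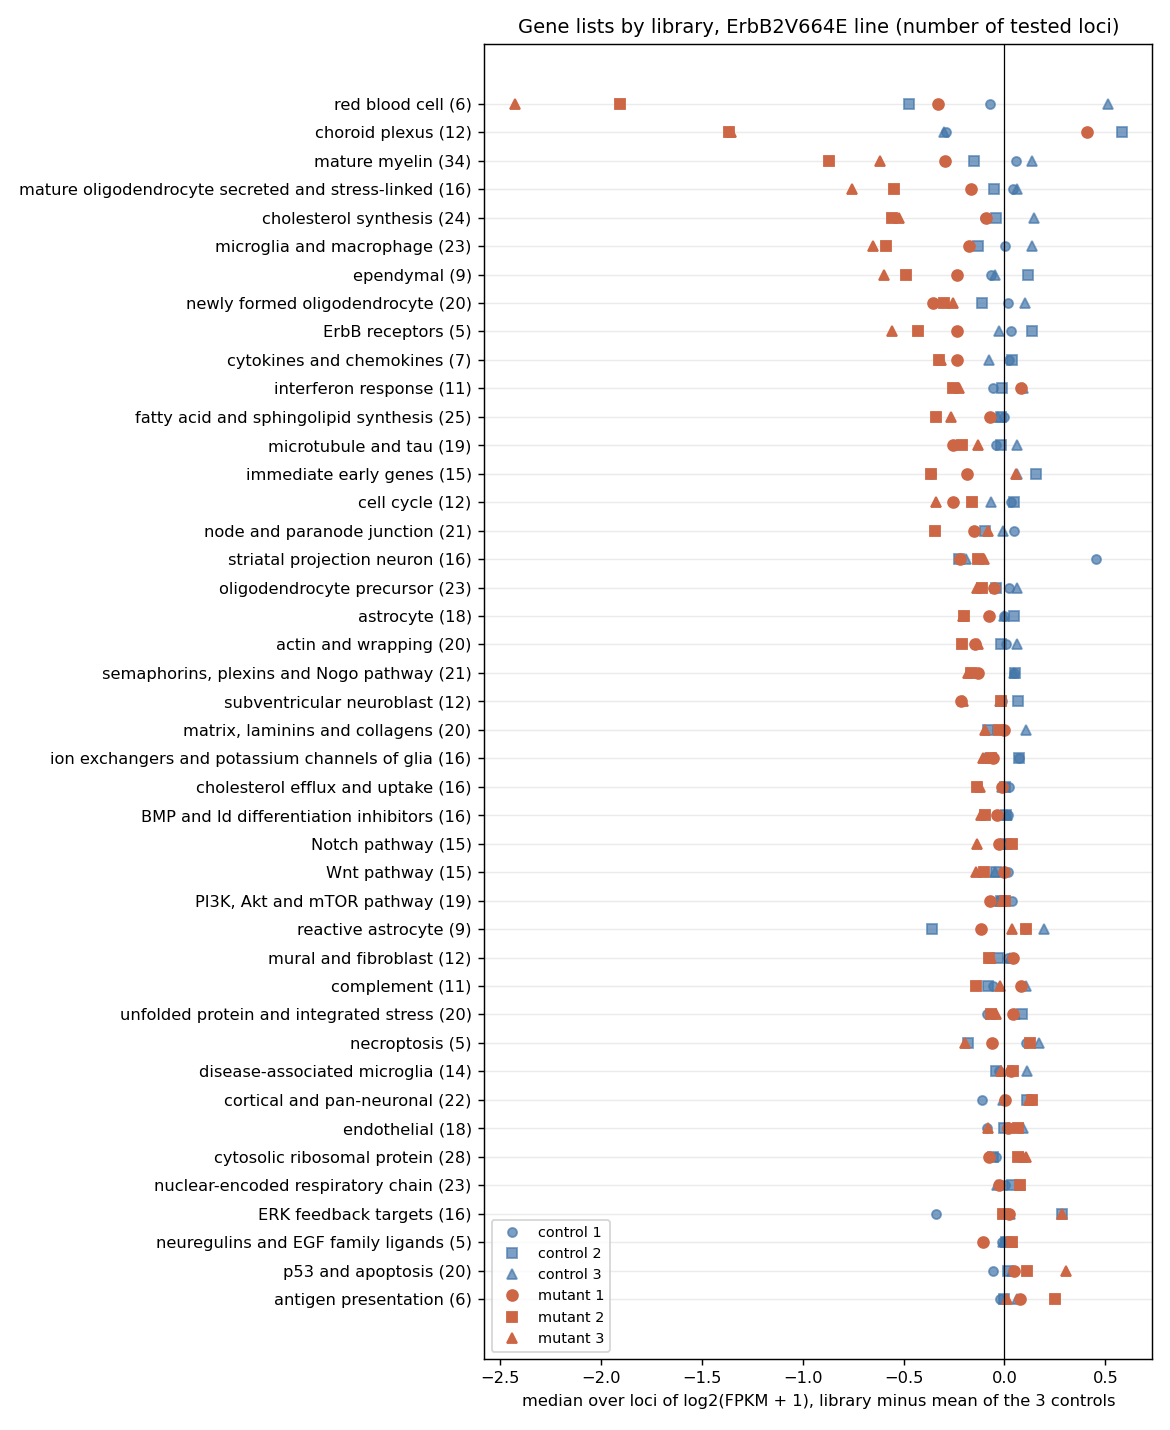
Median over the tested loci of each list (rows, number of loci in brackets, lists with at least 5 loci) of log2(FPKM + 1) minus the mean of the 3 controls, for each of the 6 libraries (x axis). Red blood cell and choroid plexus genes show the widest range, and mature myelin genes lie at -0.29, -0.87 and -0.62 in mutants 1, 2 and 3.

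Neuronal and astrocyte lists gave no calls with all mutants. Pan-neuronal and cortical genes had a median of 0.02 with 0 of 22 called, and summed FPKM of 1233 to 1406 in controls and 1210 to 1434 in mutants. At an unadjusted p under 0.05, 3 of them were lower and 1 higher, where 6.24% and 5.9% of all loci were. Striatal projection neuron genes had a median of -0.19 with 0 of 16 called, and 13 were negative, against 49% of all loci. That list lay at 0.45, -0.23 and -0.19 in controls 1, 2 and 3, and at -0.22, -0.13 and -0.10 in mutants 1, 2 and 3. Astrocyte genes had a median of -0.17 with 0 of 18 called, and Aqp4, the astrocyte water channel, was at 27.0, 20.5 and 28.2 FPKM against 14.3, 12.1 and 13.3 without overlap (-0.87, limma adjusted p = 0.195). At an unadjusted p under 0.05, 6 astrocyte genes were lower and 2 higher, against 6.24% and 5.9% of all loci. Without mutant 1, 1 was called lower, Slc7a10 (-0.86, limma adjusted p = 0.00558), where 0.985% of all loci were. Gfap, the astrocyte filament gene that climbs in injury, was at 53.4, 36.2 and 60.0 against 28.0, 37.5 and 33.3 (-0.56, 0.258). Reactive astrocyte genes had a median of -0.03 with 0 of 9 called. Ependymal genes, from the cells that line the ventricles, had 0 of 9 called by limma but 5 lower at an unadjusted p under 0.05, against 6.24% of all loci. Their median was -0.41, and the list lay at -0.23, -0.49 and -0.60 in mutants 1, 2 and 3, in the order seen for microglial and red blood cell genes.

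Proliferation and stress lists held 1 call. In the cell cycle list 11 of 12 tested genes were negative with a median of -0.20, and Mki67 was the only call. Over all loci 49% were negative and 0.138% were called lower. Genes of p53 and apoptosis were positive in 16 of 20 with a median of 0.12 and 0 calls. Cdkn1a, the cell cycle inhibitor induced by p53, was at 4.14, 8.69 and 5.58 FPKM in the controls, against 4.76, 17.0 and 19.7 in the mutants (0.90, limma adjusted p = 0.462; 1.49 and 0.0528 without mutant 1). Necroptosis genes (0 of 5 called, median 0) and genes of the unfolded protein and integrated stress responses (0 of 20, median -0.01) overlapped for the most part. Nuclear-encoded respiratory chain genes and ribosomal protein genes had medians of 0.06 and 0.05 with 0 calls among 23 and 28.

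The difference between the lines was tested as the change in the ErbB2V664E line minus the change in the dnEGFR line, and 16 of 13803 loci were called (0.116%). In the dnEGFR line by itself 13 loci were called (0.0942%). Col5a3 was among the 16 loci whose effects differed: its change of 1.66 compared with 0.01 in the dnEGFR line (difference 1.65, limma adjusted p = 0.0389). Tmem254c was called as well (-1.71, limma adjusted p = 0.0131), with the limits given above. With the litter block neither difference was called (adjusted p 0.228 for both). Klk6 fell in both lines, by 2.09 here and by 1.20 in the dnEGFR line (limma adjusted p = 0.0293), and the difference of -0.90 was not called (0.352). For Mag (-1.22 and -0.17, difference -1.05), Gsn (-1.30 and -0.70, difference -0.60), Serpinb1a (-1.37 and -0.70, difference -0.67) and Enpp6 (-1.04 and -0.24, difference -0.79) the difference was not called either, at adjusted p of 0.352, 0.515, 0.523 and 0.399. None of these oligodendrocyte genes is therefore shown to respond in 1 line only.

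**Figure D5:**
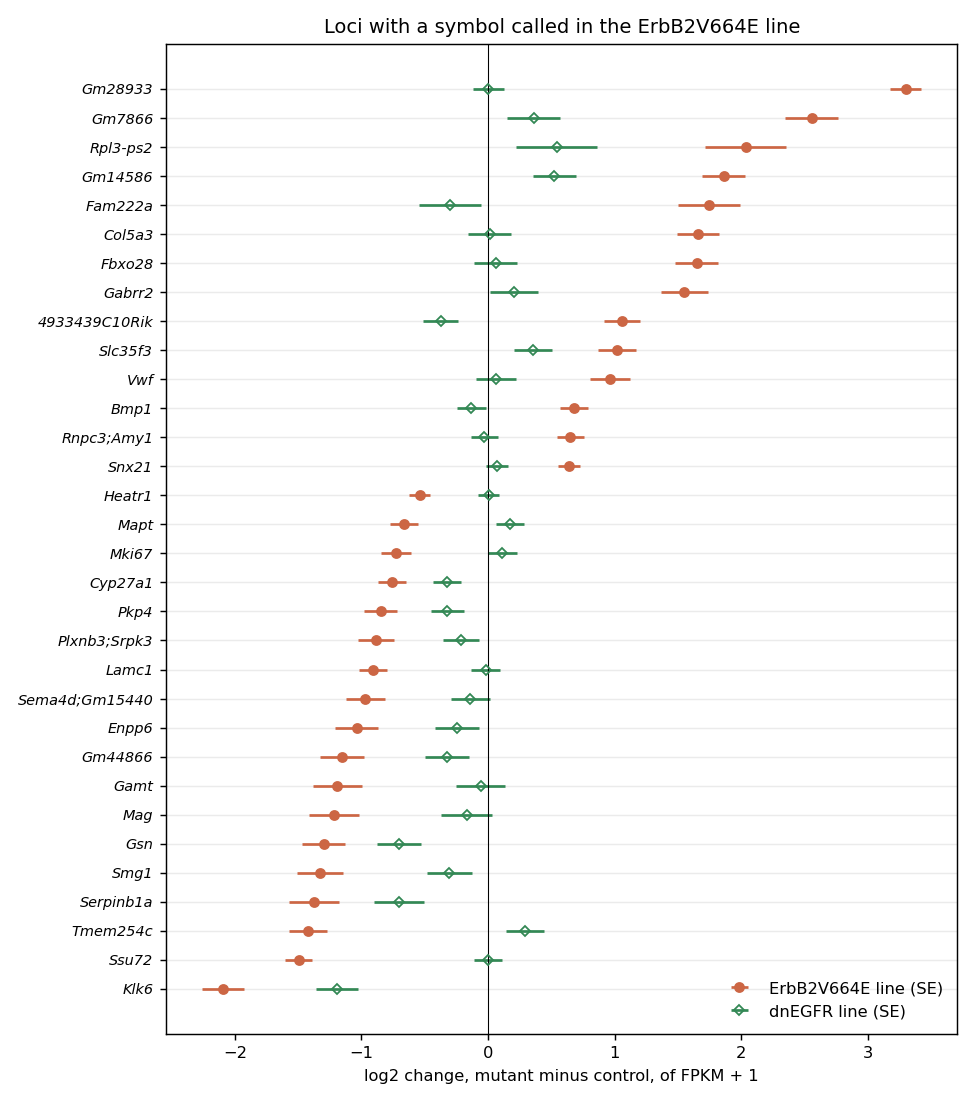
Log2 change of FPKM + 1, mutant minus control (x axis), for 32 loci with a symbol called in the ErbB2V664E line (rows), with filled circles for that line, open diamonds for the dnEGFR line, and bars for the SE from the fit. Klk6 lies at -2.09 and -1.20 in the ErbB2V664E and dnEGFR lines, and Col5a3 at 1.66 and 0.01.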

How the data were processed

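Polyadenylated RNA was sequenced from 12 libraries, 3 in each of 4 groups, with no strand kept as far as the labels' protocols say, so reads of overlapping genes from the 2 strands are mixed. The deposited values are FPKM per locus, made by the authors with HISAT and StringTie, per the submitters' processing notes. The sources used here do not state versions, options, genome build or annotation. Loci that join several symbols (1112) are named with all of them, and a symbol at several loci (1914 symbols) was read from its highest locus.

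Here log2(FPKM + 1) was fitted with limma 3.58.1 in R 4.3.3, with 1 mean per group over all 12 libraries, a variance trend and two-sided tests, for loci with at least 1 FPKM in at least 3 libraries. The Benjamini-Hochberg adjustment ran over 13803 loci, with a threshold of 0.05. The fit had 8 residual and 2.03 prior degrees of freedom and was tested on simulated data. Because mutants and controls come from the same litters per the labels, the litter was also fitted as a block. The correlation of deviations within litters was 0, 0.01 and -0.03 in this line.

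Named were the ErbB receptors and Sox10, up to 15 called loci in each direction with 1 symbol and no library at 0, up to 6 called loci with a group at 0, called members and the 3 further members with the smallest p of each list, and up to 10 loci whose effects differed between lines. Other genes named (among them Ugt8a, Apod, Hmgcs1, Cyp51, Mbp, Spry2, Srebf1 and Rpl3) were chosen after their values were seen. The members and lists were chosen with earlier results of these data known. A few loci are not reported here.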

Additional observations from a re-analysis of the deposited data

Results flagged for a closer look

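At 10 loci named here the effect differed between the lines by the interaction test, given here as the log2 change in the ErbB2V664E line minus that in the dnEGFR line. Of those with calls in the ErbB2V664E line, the difference was 3.30 for Gm28933, 2.19 for Gm7866, 1.65 for Col5a3 and 1.43 for 4933439C10Rik, and it was -1.50 for the second Ssu72 locus and -1.71 for Tmem254c. Gm28933 and the second Ssu72 locus were listed at 0 in every dnEGFR-line library, so their difference is the ErbB2V664E-line change alone. At Gm7866, Tmem254c and the second Ssu72 locus the ErbB2V664E-line controls stood apart from all other libraries. Slc24a2, a sodium and calcium exchanger, differed by -3.43, with opposite changes of -1.66 in the ErbB2V664E line and 1.77 in the dnEGFR line. In the ErbB2V664E line it was at 25.2, 34.4 and 22.2 FPKM in the controls and 9.24, 5.96 and 8.54 in the mutants. Neither change was called by itself (limma adjusted p = 0.0995 in the ErbB2V664E line and 0.191 in the dnEGFR line). Arl6ip1 (-1.50), Slc25a23 (-1.10) and Cdk7 (1.00) differed through changes in the dnEGFR line of 1.63, 1.03 and -1.06, and were not called in the ErbB2V664E line. With the litter block the difference kept its call at Gm28933 (limma adjusted p = 0.0101) and lost it at the other 9, at adjusted p of 0.11 to 0.228. Age and transgene differ together between the lines and cannot be told apart. The lines also differed at the locus Gm28661, at 5589 to 6563 FPKM in the ErbB2V664E line and at most 0.000146 in the dnEGFR line. In the dnEGFR line, mutant 1 expressed Xist (51.2 FPKM) with Ddx3y listed at 0, while its littermate control had Ddx3y at 13.7. The part of such differences in the interaction values was not tested.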

How the results depend on the processing

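Called loci in the ErbB2V664E line numbered 38 (19 higher, 19 lower). They were 5 (3 and 2) at a mean of at least 3 FPKM, 23 (19 and 4) with only the 6 libraries of the line, 7 (4 and 3) with the litter block, 104 (55 and 49) without litter pair 1 and 18 (11 and 7) without litter pair 2, the last 2 settings added after seeing the data. Pseudocounts of 0.1 and 0.5, no filter, median ratio scaling, quantile normalisation and no variance trend gave 36 to 46 calls. Leaving out 1 library gave 16 to 262 calls (10 to 126 higher, 5 to 136 lower), the most without mutant 1. In the dnEGFR line 13 loci were called, 7 (3 higher) at the stricter minimum, 22 (18 higher) with only its 6 libraries, 3 (3 higher, 0 lower) with the block, and 17 to 36 (9 to 22 higher, 5 to 18 lower) with 1 library out. For the difference between lines the 16 calls became 7 (3 higher, 4 lower), 4 with the block (2 and 2), 44 (21 and 23) without pair 1, 10 (4 higher) without pair 2 and 15 to 42 (4 to 17 and 9 to 25) with 1 library out. The cause was not tested. Signs turned for Erbb4 (0.09, 0.01 and 0.37 without control 1, control 2 or mutant 3; range with 1 library out -0.79 to 0.37), Cd4 (-0.08, -0.01 and -0.01 without control 2, control 3 or mutant 3, and -0.12 without pair 2; up to 0.28 without control 1), Cdh19 (0.13 without mutant 2, 0.17 without pair 2; -0.3 without mutant 1) and Cyld (0.05 without pair 1), none of them called.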
